A study of Homo sapiens with 4 samples.

Results

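The combined change is the difference between A549 cells grown in 3D under hypoxia and the same line grown in 2D under normoxia, that is, the outcome of altering culture and oxygen together. Of 26255 gene symbols, 12562 made up the set: those with a mean of at least 1 FPKM (fragments per kilobase of transcript and per unit of library depth) over the 4 libraries, without small RNA genes and without genes listed at 0 in any library. The smallest mean inside this limit was that of SGSM1, at 1.001 FPKM, and the largest outside it was that of ZNF846, at 0.9997 FPKM. A549 is an established human lung adenocarcinoma line, here labelled wild type. All 4 groups were kept for 5 days in medium with 5% serum, either on solidified Matrigel, a gelled basement membrane extract (3D), or on an ordinary culture dish (2D). Hypoxia was 1% oxygen. Culture and oxygen in all combinations gave 4 groups of 1 library each, and the sources used here do not say whether these came from separate cultures or pooled wells. Where 4 levels are listed in 1 order below, it is 3D hypoxia, 2D normoxia, 2D hypoxia and 3D normoxia. The series set out to characterise the micropapillary-like structures that appear under hypoxia.

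Cells sense low oxygen through prolyl hydroxylases, which mark the alpha subunits of the hypoxia-inducible factors (HIF) for destruction through VHL. When oxygen is scarce the alpha subunits persist, pair with ARNT and bind a short core sequence near genes for glycolysis, pH control, iron handling and blood vessel growth. A basement membrane gel alters adhesion, cell shape and tension, which act on the cytoskeleton, on matrix genes, on secretory differentiation and on cell division.

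The compared groups differ in both respects at once. Each gene's combined change was therefore set beside hypoxia in 2D (2D hypoxia against 2D normoxia) and 3D in normoxia (3D normoxia against 2D normoxia), all as differences of log2(FPKM + 1). What is left of the combined change after subtracting both single changes is called the departure from the sum. The comparisons share the 2D normoxia library, so an unusual value there enters all of them. With 1 library per group, the pair itself has no replicate check. limma, fitted with culture and oxygen as additive terms on the 4 libraries, gave the standard errors (SE) and the Benjamini-Hochberg adjusted p-values over all 12562 genes. Its 1 residual degree of freedom is the departure from the sum. The p-values thus weigh the combined change against that departure, which may be technical, and not against a spread between replicates. A large departure widens a gene's SE, so such a gene can miss the threshold for that reason. A small departure narrows it, so genes sorted by a small departure are called in part through that sorting. A gene is said to have risen or fallen where its combined change had an adjusted p under 0.05, and single changes, which were not tested, are given as values. Sizes of rises, falls and departures are on the log2(FPKM + 1) scale throughout.

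In that order, inferred depth was about 11300000, 23700000, 38500000 and 11600000 fragments, so that a 2 kb transcript at 1 FPKM rested on 22.5, 47.5, 77.0 and 23.3 fragments. The FPKM sums ran from 473503 in 2D normoxia to 596102 in 3D hypoxia, and the 10 highest genes held between 7.33% and 10.5% of them. All 10 markers of A549 epithelial identity reached 1 FPKM in some library, and their summed level ran from 9850 FPKM in 2D hypoxia to 15740 in 3D normoxia, and it was 14991 in 3D hypoxia against 13299 in 2D normoxia. Of the markers of other cells, 9 of 12 for blood, 8 of 8 for endothelium and 9 of 10 for fibroblasts stayed under 1 FPKM in every library, and 4, 2 and 2 of them were listed at 0 throughout. The blood cell sum ran from 17.7 to 44.2 FPKM, mostly CD68 and CD14, and the fibroblast sum from 0.833 to 14.7 FPKM, mostly COL1A1. In bulk RNA, fewer cells of a type and less RNA per cell cannot be told apart.

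In 3D hypoxia 547 genes (4.35%) were at least 2-fold higher than in 2D normoxia and 411 (3.27%) at least 2-fold lower. IFITM3 lay just inside the upper limit and GLUL just outside it, at log2 ratios of 1.0002 and 0.9987. At 4-fold the counts were 73 higher and 10 lower. limma called 1261 genes up (10.0%) and 1248 down (9.93%), and 4561 genes had an unadjusted p under 0.05. The median combined change over all genes was -0.03. Rescaling each library to the same FPKM sum moved that median by -0.31, took the share of higher genes among those 2-fold changed from 57.1% to 19.9%, and took the share of rises among limma's calls from 50.26% to 14.78%. The balance of higher against lower genes thus depended on how the libraries were scaled, and values below are for FPKM as deposited. Of the 958 2-fold genes, 921 had a transcript length, and all of these exceeded 1.96 times the counting error of the combined change, an error that covers the sampling of fragments and no other variation. The genes were picked for a large combined change, so this outcome follows in part from the choice.

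Sorting the 958 genes by their single changes, each counted from 1.5-fold, shows what the combined change was made of. The largest class followed 3D alone, with 449 genes (3.57% of all genes and 46.9% of the 958), 197 higher and 252 lower. Another 163 genes (1.3%) followed hypoxia alone, 129 higher and 34 lower. In 117 genes (0.931%) both single changes pointed the same way as the combined change and added up, 66 higher and 51 lower. In 150 genes (1.19%) neither single change was counted, and these are called genes that needed both, 96 higher and 54 lower. In 70 genes the single changes were opposed and left a net change, 52 higher and 18 lower, and 9 genes fell under none of these. Outside the 958, 200 genes (1.59%) cancelled out: their single changes were counted in opposite directions and the combined change was under 1.5-fold. The classes were set from the values themselves, so they are descriptions by size with no test, and the count of limma calls within a class is no test of the class.

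**Figure D1:**
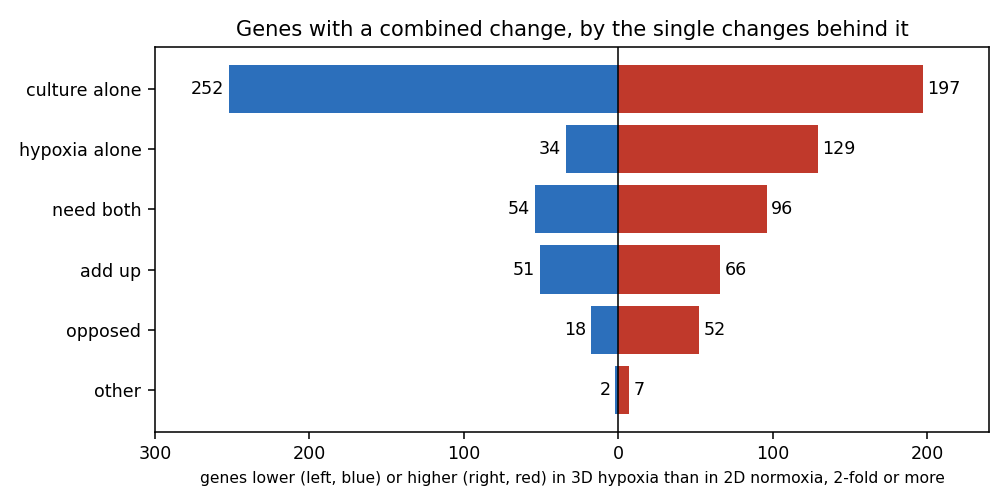
Number of genes at least 2-fold lower (blue, left) or higher (red, right) in 3D hypoxia than in 2D normoxia, split by which single change reached 1.5-fold; 1 library per condition, so there are no error bars. The bars for 3D alone are the longest (252 lower, 197 higher), and the bar for hypoxia alone lies mostly on the higher side (129 against 34).

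Where both single changes were counted, they more often opposed each other than pointed the same way. Of 546 such genes, 358 had opposite and 188 had equal directions. The opposed genes were 192 with hypoxia up and 3D down, and 166 with the reverse. Their combined change was under 1.5-fold in 200, between 1.5- and 2-fold in 88 and at least 2-fold in 70, where it took the sign of 3D in 47 genes and of hypoxia in 23. Among the 188 with equal directions, 117 had a combined change of at least 2-fold the same way and 71 stayed under 2-fold, 23 of them under 1.5-fold. Of the genes that differed at least 2-fold with hypoxia in 2D, 156 were within 1.5-fold of their 2D normoxia level in 3D hypoxia, and so were 115 of those that differed at least 2-fold with 3D in normoxia.

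**Figure D2:**
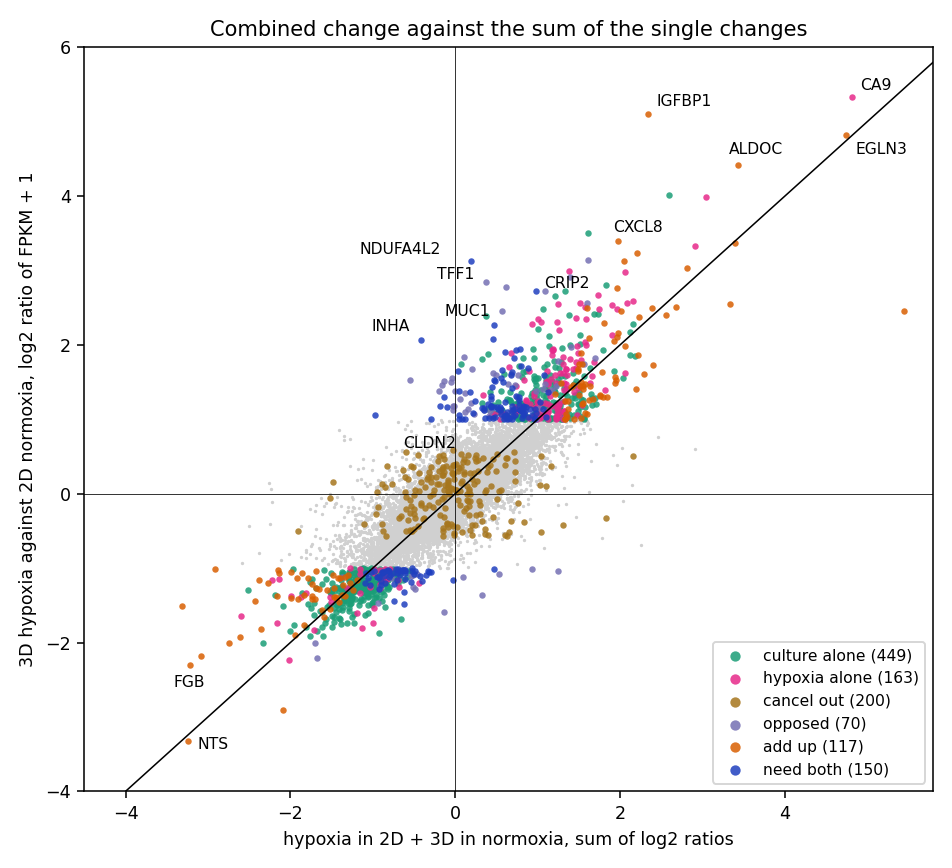
Each point is a gene, with the sum of the log2 ratios for hypoxia in 2D and 3D in normoxia on the horizontal axis and the log2 ratio of the combined change on the vertical axis; the line marks equality, colours mark the classes and grey points have no class. EGLN3 and NTS lie next to the line, IGFBP1, NDUFA4L2 and INHA lie above it, and the genes that cancelled out form a band around 0.

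The highest combined change was that of CA9. This cell-surface carbonic anhydrase, which helps hypoxic tumour cells export acid, was at 199.7 FPKM in 3D hypoxia and 4.0 in 2D normoxia, with 139 in 2D hypoxia and 4.05 in 3D normoxia. The level was high in both hypoxic libraries and about equal in both normoxic ones. CA9 rose by 5.33 (SE 0.21, limma adjusted p = 3.92e-05) on the log2 scale, of which hypoxia in 2D gave 4.80 and 3D in normoxia 0.01. NDRG1, a stress-responsive gene induced by low oxygen, was at 387 FPKM in 3D hypoxia and 23.4 in 2D normoxia, with 203 in 2D hypoxia and 23.1 in 3D normoxia, again with no difference between the normoxic libraries (-0.02). Its rise of 3.99 (SE 0.30, limma adjusted p = 0.00104) went 0.95 beyond the sum, hypoxia giving 3.06 in 2D and 4.01 in 3D. IL32, a proinflammatory cytokine, was at 49.8, 4.06, 35.4 and 4.27 FPKM in the same order of libraries and rose by 3.33. It too was high in the hypoxic libraries of both cultures.

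Of the 29 HIF target genes in the list, 26 belonged to the set; 2 were under the mean limit and 1 symbol was not found. By limma 23 rose and none fell, against 10.0% and 9.93% of all genes, and their median combined change was 1.81. The median was 1.56 for hypoxia in 2D, -0.13 for 3D in normoxia and 0.45 for the departure from the sum. The list did not behave as a block. Following hypoxia alone were 9 genes: CA9, NDRG1, PDK1, MXI1, PFKFB4, KDM3A, INSIG2, BHLHE40 and ANKRD37. In 5 genes, EGLN3, IGFBP3, BNIP3L, BNIP3 and DDIT4, the level was also higher in 3D normoxia and the changes added up. In 7 genes, SLC2A3, ANGPTL4, STC2, P4HA1, SLC2A1, ADM and VEGFA, the level was lower in 3D normoxia and the combined change was a net rise. CA12 and EGLN1 were classed as needing both, VLDLR cancelled out, and P4HA2 and PFKFB3 had no class. For EGLN1 this class rested on the counting limit, which neither single change reached. Hypoxia in 2D gave 0.47 and 3D in normoxia 0.49 of its combined change of 1.14, with a departure of only 0.18. With a lower limit for single changes, EGLN1 added up. The calls of ADM and CA12 were lost under 7 and 2 of 8 alternatives. The split into classes depended in part on scaling. With libraries rescaled to the same sum, BNIP3, BNIP3L and DDIT4 followed hypoxia alone, PFKFB4 was opposed and INSIG2 needed both. CA12, EGLN1, VEGFA and BHLHE40 then had no class. The list was written with earlier results of these data known, and members beyond the 4 with the highest combined change are named here after their values were seen.

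Promoters of 4 genes are shown because they stand for different classes: CA9 followed hypoxia alone, ALDOC and BNIP3 added up, and MUC1 needed both. They were chosen after their classes and sequences were seen. Each covers 250 bases before and 50 bases after the gene start in RefSeq, on build GRCh38.p14, written 5′ to 3′ on the gene's own strand: CA9 at chr9:35673678-35673977 (plus), ALDOC at chr17:28576846-28577145 (minus), BNIP3 at chr10:131981874-131982173 (minus) and MUC1 at chr1:155192866-155193165 (minus). Capitals mark ACGTG or its reverse complement CACGT, a core at which HIF is known to bind.
CA9: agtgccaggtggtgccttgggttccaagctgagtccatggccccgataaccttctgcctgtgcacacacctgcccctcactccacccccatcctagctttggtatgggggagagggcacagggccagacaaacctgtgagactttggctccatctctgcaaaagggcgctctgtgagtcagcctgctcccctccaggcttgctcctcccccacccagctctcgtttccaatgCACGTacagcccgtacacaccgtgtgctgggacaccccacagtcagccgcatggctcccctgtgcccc
ALDOC: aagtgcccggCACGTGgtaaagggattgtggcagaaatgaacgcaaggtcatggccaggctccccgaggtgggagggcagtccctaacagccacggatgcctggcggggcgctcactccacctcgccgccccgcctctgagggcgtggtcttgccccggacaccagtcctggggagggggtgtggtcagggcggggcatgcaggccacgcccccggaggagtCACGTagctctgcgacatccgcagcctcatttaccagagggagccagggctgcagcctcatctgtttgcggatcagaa
BNIP3: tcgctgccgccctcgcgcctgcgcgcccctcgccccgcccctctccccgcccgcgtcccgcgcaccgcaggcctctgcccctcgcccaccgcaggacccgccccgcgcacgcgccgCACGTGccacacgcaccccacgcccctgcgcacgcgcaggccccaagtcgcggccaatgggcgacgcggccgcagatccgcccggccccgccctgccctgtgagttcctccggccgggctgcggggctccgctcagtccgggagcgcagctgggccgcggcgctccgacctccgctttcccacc
MUC1: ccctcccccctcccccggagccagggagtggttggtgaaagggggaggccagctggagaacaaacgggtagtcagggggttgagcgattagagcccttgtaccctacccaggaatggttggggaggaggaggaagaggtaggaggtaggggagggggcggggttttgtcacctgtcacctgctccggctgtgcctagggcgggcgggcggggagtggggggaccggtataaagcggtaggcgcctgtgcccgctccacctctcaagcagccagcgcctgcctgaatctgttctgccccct

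CA9 held 1 match, 18 bases before the start. ALDOC held 3, of which the pair at 240 and 239 bases before the start overlap in the 6 letters CACGTG, and the last lay 28 bases before it. The BNIP3 window held 2 matches, which overlap in the same way at 134 and 133 bases before the start, and that of MUC1 held none. The 5 letters on either strand occurred in 21.61% of all 27305 promoters of the table and in 27.13% of the 9421 genes of the set that had an entry. They occurred in 18 of 42 entries for genes that added up to a rise, in 33 of 96 for genes higher with hypoxia alone, in 10 of 66 for genes higher with both needed and in 17 of 39 for genes lower with both needed. A match says only that the letters are present, and these shares were not tested.

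Among the 66 higher genes that added up, 54 came within 1.5-fold of the sum, 7 exceeded it and 5 fell short. EGLN3, a prolyl hydroxylase that itself acts on HIF, was at 122 FPKM in 3D hypoxia and 3.35 in 2D normoxia, with 48.1 in 2D hypoxia and 9.28 in 3D normoxia. Each library with 1 altered condition was above 2D normoxia, and the library with both was highest. EGLN3 rose by 4.82 (SE 0.17, limma adjusted p = 3.03e-05), with 3.50 for hypoxia in 2D, 1.24 for 3D in normoxia and a departure of 0.08. IGFBP3, a secreted binder of insulin-like growth factors, was at 1382 FPKM in 3D hypoxia and 132 in 2D normoxia, with 707 in 2D hypoxia and 263 in 3D normoxia, and its departure from the sum was -0.02 for a rise of 3.37 (SE 0.20, limma adjusted p = 0.000366). BNIP3L, a receptor for the removal of mitochondria, was at 106, 12.1, 56.9 and 19.7 FPKM in the same order and rose by 3.04, with 2.15 and 0.67 for the single changes. These genes stepped up with each condition by about the same log2 amount in the presence of the other.

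The 7 genes that went beyond the sum were IGFBP1, ALDOC, CXCL8, MT1X, UBD, CITED2 and TMEM141 (the last named after its values were seen). IGFBP1, another binder of insulin-like growth factors and the gene with the second-highest combined change, was at 604 FPKM in 3D hypoxia and 16.5 in 2D normoxia, with 50.1 in 2D hypoxia and 29.6 in 3D normoxia. The library with both conditions stood above each of the others by at least 3.57 log2 units, and the rise of 5.11 (SE 0.71, limma adjusted p = 0.00467) exceeded the sum by 2.76. ALDOC, an aldolase of glycolysis, was at 95 FPKM in 3D hypoxia and 3.49 in 2D normoxia, with 22.0 in 2D hypoxia and 8.45 in 3D normoxia, and rose by 4.42 (SE 0.30, limma adjusted p = 0.000719), a departure of 0.99. CXCL8, the neutrophil chemokine interleukin 8, was at 57.0 FPKM in 3D hypoxia and 4.50 in 2D normoxia, with 7.28 in 2D hypoxia and 13.3 in 3D normoxia. It rose by 3.40 (SE 0.39, limma adjusted p = 0.00301), with 1.38 for 3D in normoxia, 0.59 for hypoxia in 2D and a departure of 1.43. CXCL8 kept its class under 6 of 10 alternatives and followed 3D alone under the others. UBD, a ubiquitin-like modifier, was at 9.87, 0.241, 1.08 and 2.07 FPKM in the same order and rose by 3.13. CITED2, which competes with HIF for its coactivators, was at 38.5, 6.0, 11.3 and 11.1 FPKM and rose by 2.50 (SE 0.28, limma adjusted p = 0.00289), with 0.81 and 0.79 for the single changes. MT1X, a metal-binding metallothionein at 228, 23.3, 59.6 and 43.9 FPKM, also rose, but near-identical metallothionein copies can share its reads, so its level is uncertain. In each of these genes the highest library was 3D hypoxia.

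Among the 51 lower genes that added up, 33 kept to the sum, 17 fell short of it and 1 went beyond. NTS, the neuropeptide neurotensin, was at 42.9 FPKM in 3D hypoxia and 439 in 2D normoxia, with 228 in 2D hypoxia and 88.4 in 3D normoxia, and fell by 3.33 (SE 0.18, limma adjusted p = 0.000361). This was the largest fall of the set, made of -0.94 and -2.30 with a departure of -0.08. PHGDH, the entry enzyme of serine synthesis, was at 10.4, 35.1, 20.8 and 18.8 FPKM in the same order, with a combined change of -1.65 that kept to the sum. FANCD2, a DNA crosslink repair gene, POLA2, a subunit of the primase complex, and CHTF18, which loads the sliding clamp, had combined changes of -1.76, -1.55 and -1.56 with departures of 0.07, -0.03 and 0.05. GPR37 and SEMA6B fell by 1.90 and 1.82. All of these fell by limma. Genes that kept to the sum were picked for a small departure, limma's only error term, so their calls follow in part from that choice.

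FGB and FGG, which encode fibrinogen chains, and ABCB1 were among the genes that fell short of the sum, a group whose median departure was 0.92. FGB was at 16.8 FPKM in 3D hypoxia and 86.8 in 2D normoxia, with 37.5 in 2D hypoxia and 20.5 in 3D normoxia, and FGG at 21.7, 89.7, 51.2 and 22.6 FPKM in the same order. Both were lower in 3D normoxia than in 2D hypoxia, and hypoxia in 3D gave -0.27 for FGB and -0.06 for FGG. FGB fell by 2.30 (SE 0.29, limma adjusted p = 0.00351) where the single changes summed to more, a departure of 0.92, and FGG fell by 2.00 with a departure of 0.74. ABCB1, the drug efflux pump, was at 0.762, 6.97, 3.95 and 0.509 FPKM and fell by 2.18, with a departure of 0.91. The gene beyond the sum, NUDT4P2, was at 0.00397, 6.53, 3.28 and 2.12 FPKM; it shares sequence with NUDT4, so its level is uncertain.

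**Figure D3:**
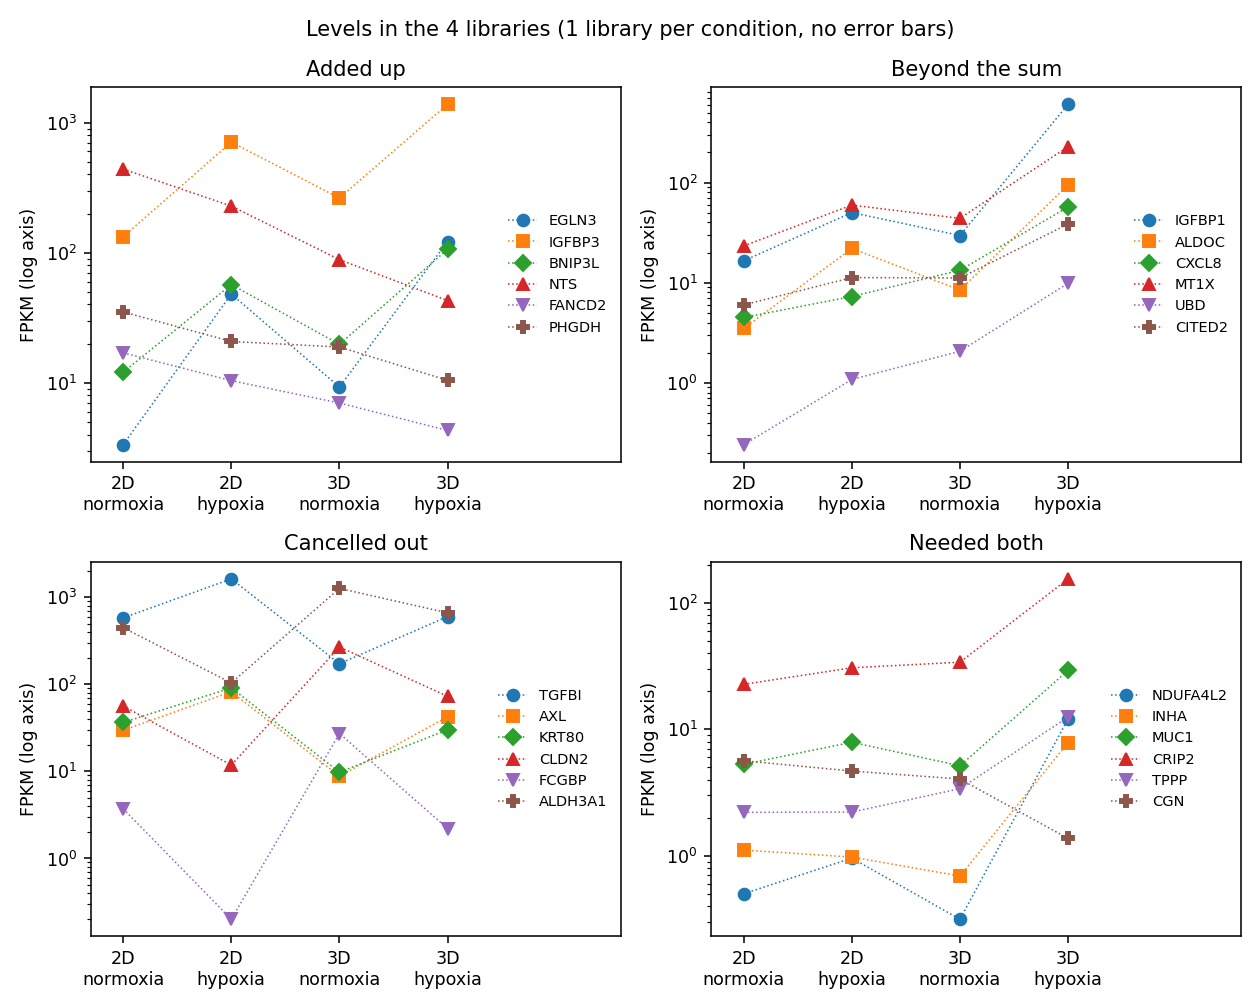
FPKM (log axis) of 24 genes in the 4 libraries, 1 library per condition, grouped by pattern; the conditions have no order and the dotted lines only join the points of a gene. EGLN3 and NTS step with each condition, IGFBP1 is highest in 3D hypoxia at 604 FPKM, TGFBI and CLDN2 return near their 2D normoxia level, and NDUFA4L2 stands out only in 3D hypoxia.

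Genes that cancelled out differed with each condition and by under 1.5-fold with both. TGFBI, a matrix adhesion protein, was at 602 FPKM in 3D hypoxia and 581 in 2D normoxia, with 1632 in 2D hypoxia and 173 in 3D normoxia. It was highest in 2D hypoxia and lowest in 3D normoxia. Hypoxia in 2D gave 1.49, 3D in normoxia -1.74, and the combined change was 0.05 (SE 0.22, limma adjusted p = 0.898), which did not pass the test. The receptor kinase AXL was at 42.4, 29.7, 82.3 and 8.83 FPKM in the same order. KRT80, a keratin, was at 30.1, 36.6, 91.3 and 9.82 FPKM, and GLIPR1, OXTR (the oxytocin receptor) and PLEK2 had the same shape, with combined changes of -0.09, -0.44 and -0.55. When libraries were rescaled to equal sums, limma called KRT80, OXTR and PLEK2 as falls.

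In 95 of the 200 genes the pattern was the mirror image, lower in 2D hypoxia and higher in 3D normoxia. CLDN2, a claudin that forms cation pores in leaky epithelia, was at 73.0 FPKM in 3D hypoxia and 56.5 in 2D normoxia, with 11.8 in 2D hypoxia and 269 in 3D normoxia, with -2.17 for hypoxia in 2D, 2.23 for 3D in normoxia and 0.36 (SE 0.19, limma adjusted p = 0.202) for both. ALDH3A1, an aldehyde dehydrogenase abundant in A549, was at 665 FPKM in 3D hypoxia and 449 in 2D normoxia, with 104 in 2D hypoxia and 1269 in 3D normoxia, with a combined change of 0.57. FCGBP, a mucus-associated protein, was at 2.21, 3.72, 0.2 and 27.3 FPKM in the same order, and SELENBP1 at 29.5, 21.0, 5.64 and 65.2 FPKM. The levels in 3D hypoxia lay between those of the other hypoxic and the other 3D library in all 4 genes. CEACAM1, TBXAS1 (thromboxane synthase) and GPCPD1 had combined changes of 0.43, 0.49 and 0.33 from 2D hypoxia changes of -1.56, -1.47 and -1.99. None of the 200 genes was called by limma on the deposited scale, where the class itself limits the combined change to 1.5-fold, and FCGBP was called as a fall after rescaling.

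Of the 12 mesenchymal genes in the set, 9 were higher with hypoxia in 2D and lower with 3D in normoxia, FN1 was higher with each, and ACTA2 and TWIST1 were lower with each. They had a median of 1.11 for hypoxia in 2D, -0.68 for 3D in normoxia and -0.08 combined. The combined median was 0.05 without genes under a mean of 5 FPKM. Of the 12, limma called 2 up and 3 down, beside 10.0% and 9.93% of all genes. TGFBI, AXL and CDH2 cancelled out. VIM, the intermediate filament vimentin, was at 985 FPKM in 3D hypoxia and 450.0 in 2D normoxia, with 882 in 2D hypoxia and 293 in 3D normoxia, and its opposed changes left a rise of 1.13 (SE 0.29, limma adjusted p = 0.0307), a call that was lost under 4 of 8 alternatives. THBS1 and CYR61, matricellular proteins, were higher in 2D hypoxia (1.41 and 1.24) and ended lower, falling by 1.08 (lost under 2 of 8 alternatives) and 1.11 in 3D hypoxia. FN1, fibronectin, followed 3D alone, at 475, 139, 142 and 333 FPKM in the same order, and rose by 1.77 (SE 0.23, limma adjusted p = 0.0038), while ACTA2 fell by 1.45 with hypoxia alone. The list thus held every pattern except adding up and needing both.

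The 23 collagen, laminin and basement membrane genes had medians of 0.53 for hypoxia in 2D, -0.84 for 3D in normoxia and -0.14 combined. Of them limma called 2 up and 5 down, beside 10.0% and 9.93% of all genes. The combined median was 0.06 when genes under a mean of 5 FPKM were left out. COL5A1, a fibrillar collagen chain, was at 2.12 FPKM in 3D hypoxia and 8.44 in 2D normoxia, with 54.6 in 2D hypoxia and 0.455 in 3D normoxia, and fell by 1.6 (SE 0.41, limma adjusted p = 0.0307), a call lost under 4 of 8 alternatives. It was highest in 2D hypoxia and low in both 3D libraries. COL1A1 had the same shape at 0.614, 2.32, 13.2 and 0.856 FPKM and did not pass the test (limma adjusted p = 0.256). LAMB3, a chain of an epithelial laminin, followed hypoxia alone and rose by 1.77 (SE 0.17, limma adjusted p = 0.00225), whereas LAMA3, another chain of it, fell by 1.30, a call lost under 6 of 8 alternatives. COL7A1, the anchoring fibril collagen, was at 77.3, 34.1, 117.5 and 20.1 FPKM and rose by 1.16 from opposed changes of 1.76 and -0.73.

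Among 19 matrix remodelling enzymes limma called 5 up and 1 down, beside 10.0% and 9.93% of all genes. Their combined median was -0.11. Of the collagen-modifying enzymes in the list, LOXL2, PLOD2 and P4HA1 were opposed and rose, LOXL4 rose with hypoxia alone, and PLOD1, PLOD3 and P4HA2 had no class and no call. LOXL2, a lysyl oxidase that crosslinks collagen, was at 179 FPKM in 3D hypoxia and 60.6 in 2D normoxia, with 347 in 2D hypoxia and 9.64 in 3D normoxia, with 2.50 and -2.53 for the single changes and a combined rise of 1.55 (SE 0.43, limma adjusted p = 0.0411). This call was lost under 7 of 8 alternatives. PLOD2, a lysyl hydroxylase, was at 218, 71.3, 213 and 33.5 FPKM in the same order and rose by 1.6 (lost under 1 of 8 alternatives), and P4HA1, a prolyl hydroxylase of collagen, was at 88.6, 31.5, 90.8 and 18.1 FPKM and rose by 1.46. All 3 enzymes were lowest in 3D normoxia and had similar or lower levels in 3D hypoxia than in 2D hypoxia. MMP7, a matrix metalloprotease of epithelia, was at 220.2, 105, 121 and 93.6 FPKM and needed both, with a rise of 1.06 whose call was lost under 7 of 8 alternatives, and CTSL, a lysosomal protease, fell by 1.34 with hypoxia alone.

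WISP2 and SLC2A3 were the highest of the opposed genes in which the hypoxia sign prevailed. WISP2, a secreted protein of the CCN family, was at 93.6 FPKM in 3D hypoxia and 9.70 in 2D normoxia, with 83.6 in 2D hypoxia and 3.15 in 3D normoxia, a rise of 3.14 (SE 0.42, limma adjusted p = 0.00417). SLC2A3, a glucose transporter, was at 187 FPKM in 3D hypoxia and 24.0 in 2D normoxia, with 219 in 2D hypoxia and 6.46 in 3D normoxia, and rose by 2.91 (SE 0.42, limma adjusted p = 0.00503). Both were lowest in 3D normoxia and in 3D hypoxia came close to their 2D hypoxia level, and 3D in hypoxia gave 0.16 and -0.23 against -1.37 and -1.75 in normoxia. Where the 3D sign prevailed, IL11, a cytokine, was at 0.7 FPKM in 3D hypoxia and 6.83 in 2D normoxia, with 12.8 in 2D hypoxia and 0.389 in 3D normoxia, and fell by 2.2 (SE 0.24, limma adjusted p = 0.00275). PADI2, which converts arginine to citrulline in proteins, had the same shape at 1.38, 8.59, 14.1 and 0.865 FPKM and fell by 2.01.

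Other opposed genes went the reverse way, lower with hypoxia and higher with 3D. GPX2, a glutathione peroxidase of epithelia, was at 1311 FPKM in 3D hypoxia and 381 in 2D normoxia, with 176 in 2D hypoxia and 1948 in 3D normoxia, and rose by 1.78 (SE 0.25, limma adjusted p = 0.00499). The aquaporin AQP3 was at 72.0 FPKM in 3D hypoxia and 31.2 in 2D normoxia, with 4.65 in 2D hypoxia and 179.9 in 3D normoxia, and rose by 1.18, a call lost under 6 of 8 alternatives. AKR1C1, a hydroxysteroid reductase with near-identical paralogs that can share its reads, was at 653, 321, 143 and 1068 FPKM and rose by 1.02, a call lost under 2 of 8. In each, 3D hypoxia lay between the 3D normoxia and the 2D normoxia level.

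In genes that needed both, neither single change was counted and the combined change was. For the 96 higher ones the median combined change was 1.16, of which hypoxia in 2D gave 0.31, 3D in normoxia 0.35 and the departure from the sum 0.62. Much of a typical combined change in this class was thus made of single changes below the counting limit. In 20 of the 150 genes each single change was under 0.32 on the log2 scale, and in 102 of the 139 with a transcript length the departure exceeded 1.96 times its counting error. In 26 of the higher and 3 of the lower genes, 3D hypoxia differed at least 2-fold from 2D hypoxia and also from 3D normoxia. RPL28, whose larger single change was 0.584, was the last inside the class among the higher genes, and C6orf48, at 0.587, the first outside; RPL28 has processed copies that can share its reads. limma called 89 of the 96 up and 52 of the 54 down, beside 10.0% and 9.93% of all genes. The class was picked for a large combined change, the quantity limma tests, so these counts do not bear on the class. The genes called up include NDUFA4L2 and MUC3A, which reached the mean of 1 FPKM only through 3D hypoxia.

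NDUFA4L2, a mitochondrial protein known to restrain respiration in hypoxia, had the largest combined change of these genes. It was at 12.1 FPKM in 3D hypoxia and 0.5 in 2D normoxia, with 0.957 in 2D hypoxia and 0.314 in 3D normoxia, so 3 libraries lay under 1 FPKM and 3D hypoxia alone was high. It reached the mean of 1 FPKM only through 3D hypoxia, the library where it was high, so its combined change of 3.13 and departure of 2.94 are given with no test. CRIP2, a LIM domain protein, was at 156 FPKM in 3D hypoxia and 22.8 in 2D normoxia, with 30.8 in 2D hypoxia and 34.1 in 3D normoxia, and rose by 2.72 (SE 0.47, limma adjusted p = 0.00887). MUC1, the transmembrane mucin of the apical surface, was at 29.3 FPKM in 3D hypoxia and 5.30 in 2D normoxia, with 7.91 in 2D hypoxia and 5.16 in 3D normoxia, about equal in the normoxic libraries, and rose by 2.27 (SE 0.48, limma adjusted p = 0.0175). TPPP, a tubulin-binding protein, was at 12.5, 2.21, 2.22 and 3.39 FPKM in the same order and rose by 2.08; for MUC1 and TPPP the call was lost under 3 of 8 alternatives. INHA, the inhibin alpha subunit, was at 7.86 FPKM in 3D hypoxia and 1.11 in 2D normoxia, with 0.976 in 2D hypoxia and 0.691 in 3D normoxia. Like NDUFA4L2 it reached the mean of 1 FPKM only through 3D hypoxia, so its combined change of 2.07 is given with no test.

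HILPDA, a lipid droplet protein and HIF target, was at 238 FPKM in 3D hypoxia and 63.1 in 2D normoxia, with 79.6 in 2D hypoxia and 76.8 in 3D normoxia, and rose by 1.90 (SE 0.37, limma adjusted p = 0.0132). Unlike NDUFA4L2 it was already well expressed in 2D normoxia. RIMKLB, a glutamate ligase, was at 62.6, 15.7, 21.6 and 19.5 FPKM in the same order and rose by 1.93. C1R, a protease that starts the complement cascade, was at 74.1 FPKM in 3D hypoxia and 18.6 in 2D normoxia, with 25.8 in 2D hypoxia and 23.6 in 3D normoxia, and rose by 1.94 (SE 0.33, limma adjusted p = 0.00904), and its partner C1S was at 98.5, 31.0, 41.0 and 38.3 FPKM and rose by 1.64. Each of these 4 had its other 3 libraries within 1.5-fold of one another.

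The lower genes that needed both had smaller departures. CGN, the tight junction protein cingulin, was at 1.37 FPKM in 3D hypoxia and 5.65 in 2D normoxia, with 4.68 in 2D hypoxia and 4.05 in 3D normoxia, and fell by 1.49 (SE 0.29, limma adjusted p = 0.0138), a call lost under 1 of 7 alternatives. RFC3, a clamp loader subunit of DNA replication, was at 7.99, 17.5, 14.5 and 14.4 FPKM in the same order, and the kinetochore genes DSN1 and OIP5 at 9.84, 23.6, 22.0 and 17.1 FPKM for DSN1 and 4.99, 11.2, 8.77 and 8.90 FPKM for OIP5. These fell by 1.04, 1.18 and 1.03, with departures of -0.52, -0.64 and -0.40, and the call of RFC3 was lost under 1 of 8 alternatives. MCOLN1, a lysosomal ion channel, CD3EAP, a subunit of RNA polymerase I, and ARSK, a sulfatase, fell by 1.28, 1.17 and 1.10, the last 2 lost under 2 of 7 alternatives. ARHGAP11B had a combined change of -1.16 and missed the threshold in limma (adjusted p = 0.0503).

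Among genes higher with 3D alone, several of the largest combined changes also went beyond the sum. CP, the copper-carrying ferroxidase ceruloplasmin, was at 526 FPKM in 3D hypoxia and 31.5 in 2D normoxia, with 42.5 in 2D hypoxia and 146 in 3D normoxia, and rose by 4.02 (SE 0.40, limma adjusted p = 0.00225), with 2.17 for 3D in normoxia and 3.6 for 3D in hypoxia. AGTR1, an angiotensin receptor, was at 20.3 FPKM in 3D hypoxia and 0.876 in 2D normoxia, with 1.34 in 2D hypoxia and 3.59 in 3D normoxia, and rose by 3.51. The complement genes C3 and CFB were at 139, 20.2, 17.7 and 59.5 FPKM for C3 and 22.4, 2.34, 2.44 and 10.5 FPKM for CFB in the same order, and rose by 2.72 and 2.81, with departures of 1.39 and 0.98. The transcription factor gene FOS was at 21.1, 2.49, 2.13 and 7.98 FPKM and rose by 2.66. In all 5 genes hypoxia differed from normoxia by under 1.5-fold in 2D and by more than that in 3D. Lower with 3D alone were FBN2, a fibrillin, at 1.37, 8.55, 7.95 and 1.02 FPKM, and FZD8, a Wnt receptor, at 3.65, 15.7, 16.0 and 3.08 FPKM, which fell by 2.01 and 1.84.

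Cell cycle genes fell, and on the deposited scale most followed 3D. Over all genes limma called 10.0% up and 9.93% down. Of 22 replication and G1/S genes 19 fell and none rose in limma, with medians of -1.12 combined, -0.25 for hypoxia in 2D and -0.62 for 3D in normoxia. Of 22 G2/M genes 21 fell and none rose, with medians of -1.27, -0.19 and -0.89. MKI67, the proliferation marker, was at 24.0 FPKM in 3D hypoxia and 93.4 in 2D normoxia, with 78.1 in 2D hypoxia and 32.3 in 3D normoxia, and fell by 1.92 (SE 0.18, limma adjusted p = 0.00201). TOP2A, a topoisomerase of mitotic chromosomes, was at 39.9, 135, 112 and 54.3 FPKM in the same order and fell by 1.74. CDC6 and MCM10, which load and start replication origins, fell by 1.73 and 1.85. By class on the deposited scale, 18 of the G2/M genes and 12 of the G1/S genes followed 3D alone and 2 of the latter needed both. None added up there, since hypoxia in 2D stayed under 1.5-fold. CDC6, CDC45, MCM7 and MCM10 added up after rescaling, or with single changes counted from 0.32 on the log2 scale. MKI67, TOP2A, CENPF, TPX2 and UHRF1 did not. Other members also passed the 0.32 limit downward with each condition. Among them were AURKA (-0.45 with hypoxia in 2D and -1.01 with 3D in normoxia), CDC20 (-0.41 and -1.06) and MCM2 (-0.46 and -0.98). In sign alone, 20 of the 22 G2/M genes and 17 of the 22 G1/S genes were lower with each condition.

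Glycolysis followed hypoxia. Of 19 genes for glycolysis and lactate export 13 rose and none fell in limma, beside 10.0% and 9.93% of all genes. The medians were 1.20 combined, 1.00 for hypoxia in 2D and 0.03 for 3D in normoxia, and 10 genes followed hypoxia alone. SLC16A3, the lactate exporter, was at 108 FPKM in 3D hypoxia and 12.8 in 2D normoxia, with 56.0 in 2D hypoxia and 13.1 in 3D normoxia, and rose by 2.98 (SE 0.28, limma adjusted p = 0.00225), the normoxic libraries being about equal. PGK1 and HK2, kinases of the pathway, were at 1598, 286, 850.2 and 322 FPKM for PGK1 and 6.84, 0.229, 3.07 and 0.233 FPKM for HK2 in the same order, and rose by 2.48 and 2.67. For SLC16A3, PGK1 and HK2 the departures were 0.91, 0.74 and 0.94, so hypoxia gave more in 3D than in 2D. PFKP cancelled out, at 275, 215, 429.6 and 75.1 FPKM, and PFKL needed both; these were named after their values were seen.

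HIF1A, the gene for HIF-1 alpha, was at 41.1 FPKM in 3D hypoxia and 127 in 2D normoxia, with 48.9 in 2D hypoxia and 144 in 3D normoxia, and fell by 1.61 (SE 0.20, limma adjusted p = 0.00378), with hypoxia alone. EPAS1, the gene for HIF-2 alpha, was at 63.3, 65.5, 49.8 and 62.1 FPKM in the same order and ARNT at 10.7, 11.7, 12.1 and 9.90 FPKM, with combined changes of -0.05 and -0.12 that did not pass. Of 8 genes of the oxygen-sensing machinery limma called 1 up, CITED2, and 1 down, HIF1A, beside 10.0% and 9.93% of all genes. The 28 oxidative phosphorylation genes had no 2-fold member and no limma call on the deposited scale, with a median of -0.04 combined, -0.17 for hypoxia in 2D and 0.31 for 3D in normoxia. Among alternatives, SDHA, a subunit of complex II, gained a call as a fall under 2 of 8 and NDUFA9, a subunit of complex I, under 1 of 8, rescaling among them.

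**Figure D4:**
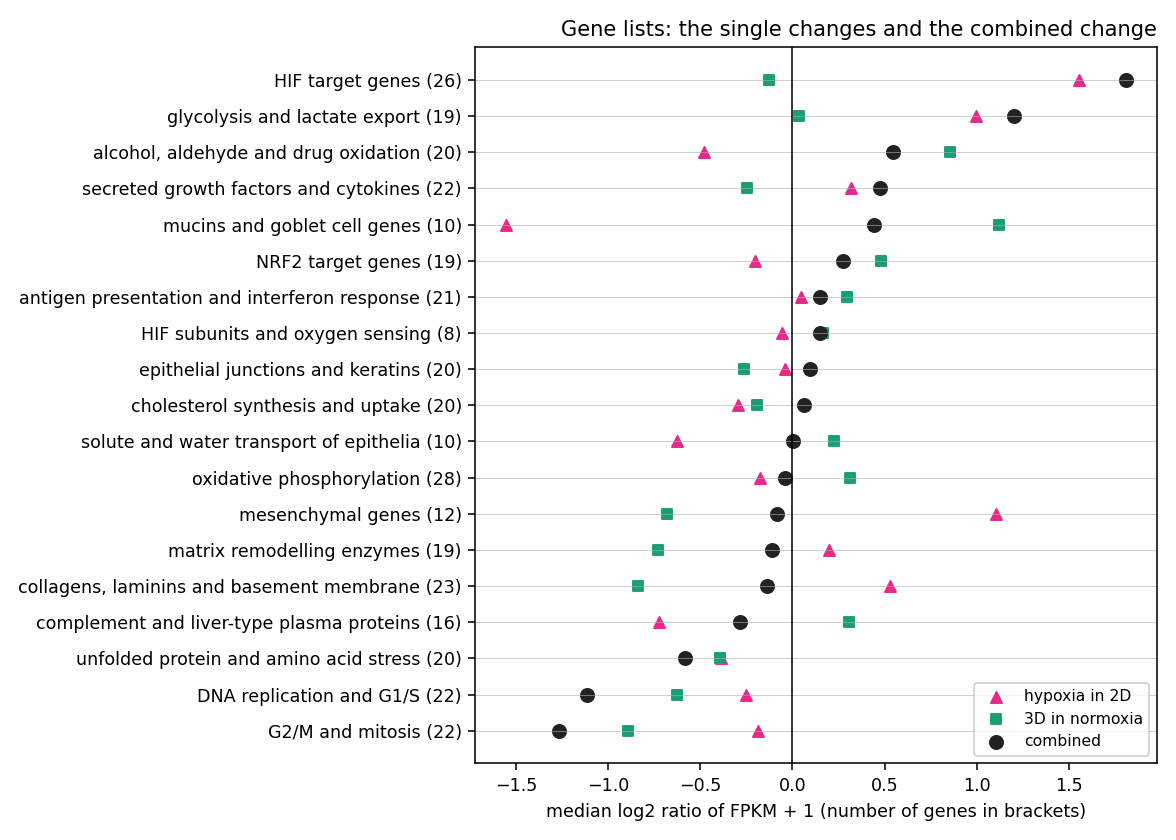
Median log2 ratio of each gene list for hypoxia in 2D (triangles), 3D in normoxia (squares) and the combined change (circles), with the number of genes in brackets; medians carry no error bars. HIF targets (1.81) and glycolysis (1.20) end highest and the cell cycle lists lowest (-1.12 and -1.27), while mesenchymal genes and mucins have single medians of opposite sign.

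Of 10 mucin and goblet cell genes, 7 were lower with hypoxia in 2D and higher with 3D in normoxia, MUC1 and MUC3A had the reverse signs, and MUC20 was lower with each. The medians were -1.55 for hypoxia in 2D, 1.12 for 3D in normoxia, 0.44 combined and 1.26 for the departure from the sum. limma called 3 up and 1 down, beside 10.0% and 9.93% of all genes. AGR2, a protein folding enzyme of mucus-secreting cells, was at 484 FPKM in 3D hypoxia and 435 in 2D normoxia, with 73.3 in 2D hypoxia and 918 in 3D normoxia, and SPDEF, a regulator of goblet cells, at 18.2, 19.0, 2.04 and 45 FPKM in the same order; both cancelled out. The gel-forming mucins MUC5B and MUC5AC were at 168, 101, 12.5 and 301 FPKM for MUC5B and 22.4, 10.8, 1.14 and 61.5 FPKM for MUC5AC, with combined changes of 0.73 and 0.98 that did not pass; MUC5AC gained the call under 2 of 8 alternatives. AGR2, SPDEF, MUC5B and MUC5AC had their lowest level in 2D hypoxia and their highest in 3D normoxia. TFF1, a trefoil peptide secreted with mucus, was at 20.7 FPKM in 3D hypoxia and 2.02 in 2D normoxia, with 0.755 in 2D hypoxia and 5.78 in 3D normoxia, and rose by 2.84 (SE 0.64, limma adjusted p = 0.0216), lost under 3 of 8 alternatives. MUC1 and MUC3A, membrane mucins, needed both. MUC3A was at 2.72 FPKM in 3D hypoxia and under 1 FPKM in the other libraries. It reached the mean of 1 FPKM only through 3D hypoxia, where it was high, so its call among the 3 up is no test.

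Over all genes limma called 10.0% up and 9.93% down, the shares to set beside the next 3 lists. Of 20 alcohol, aldehyde and drug oxidation genes 6 rose and none fell in limma. Their medians were 0.54 combined, -0.48 for hypoxia in 2D and 0.85 for 3D in normoxia. CES1, a carboxylesterase, was at 5.02, 0.647, 0.195 and 8.89 FPKM and rose by 1.87. ALDH3B1 was at 225, 64.9, 76.5 and 128 FPKM and rose by 1.78. Both were classed as following 3D alone, which ALDH3B1 kept under 8 of 10 alternatives and CES1 under only 4 of 9. CES1 was opposed with a pseudocount of 0.1, after rescaling and with a lower limit for single changes. Its level was lower with hypoxia in each culture, by -0.46 in 2D and -0.72 in 3D, and under 1 FPKM in both 2D libraries. Of 19 NRF2 targets, antioxidant genes, 6 rose and 2 fell; their combined median of 0.27 became -0.05 with rescaled libraries. GPX2 rose the most, and HMOX1, heme oxygenase, was at 78.3, 236, 246 and 92.2 FPKM and fell by 1.58. Of 20 unfolded protein and amino acid stress genes 1 rose and 9 fell, with a median of -0.58 from equal single medians of -0.39. HSPA5, the chaperone BiP, was at 139 FPKM in 3D hypoxia and 305 in 2D normoxia, with 192 in 2D hypoxia and 179.7 in 3D normoxia, and PDIA4, a disulfide isomerase, at 113, 275, 155 and 175 FPKM; both added up and fell by 1.13 and 1.27.

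Complement and liver-type plasma protein genes split: of 16, 5 rose and 3 fell in limma, beside 10.0% and 9.93% of all genes. Their median of -0.28 became 0.09 with no filter on low values. C3, CFB, TF, C1R and C1S rose and FGB, FGG and AMBP fell, the call of AMBP being lost under 4 of 8 alternatives. TF, the iron carrier transferrin, was at 21.5 FPKM in 3D hypoxia and 3.31 in 2D normoxia, with 2.04 in 2D hypoxia and 6.91 in 3D normoxia, and rose by 2.38 (SE 0.53, limma adjusted p = 0.0208), lost under 3 of 8 alternatives. Of 22 secreted growth factors and cytokines 7 rose and 2 fell, beside the same shares of all genes, with a median of 0.48. CCL2, a monocyte chemokine, was at 210.2, 46.9, 219 and 38.2 FPKM in the same order and rose by 2.14 (SE 0.19, limma adjusted p = 0.0017) with hypoxia alone. PDGFB, a growth factor for pericytes, was at 3.49, 2.16, 24.6 and 0.74 FPKM and cancelled out, and was named after its values were seen.

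In 6 other lists the combined median lay between 0.00 and 0.15 on the deposited scale. Beside their counts of rises and falls, the shares over all genes were 10.0% and 9.93%. Of 20 epithelial junction and keratin genes 2 rose and 1 fell, with a median of 0.09 that was -0.19 with rescaled libraries. KRT19 and PKP3, a keratin and a desmosome protein, rose by 1.55 and 1.20 and CGN fell. Of 20 cholesterol genes 1 rose, with a median of 0.06 that was -0.26 with rescaled libraries. Of 21 antigen presentation and interferon genes 5 rose and 4 fell, with a median of 0.15 that was -0.12 with rescaled libraries; B2M and HLA-B, parts of class I molecules, rose by 1.02 (lost under 1 of 8 alternatives) and 1.20. Of 10 transport genes 2 rose (AQP3 and ATP1B1, the latter a sodium pump subunit that needed both) and 1 fell, with a median of 0.00 that was -0.31 with rescaled libraries. The oxygen-sensing list had a median of 0.15, which was -0.17 with rescaled libraries, and the A549 identity list 0.05, which was -0.28, with 2 rises and 1 fall among 10. Of the other marker lists, blood cells had 3 members with a median of 0.60 and fibroblasts 1, COL1A1, at -1.04; none of them was called, and endothelium had no member.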

How the data were processed

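mRNA was measured in 4 A549 libraries, made with a stranded mRNA kit per the labels' protocols. The authors deposited FPKM values by symbol, 1 table per library, that is, fragments per kilobase of transcript and per unit of library depth. The submitters' processing notes name Cuffdiff 2.2.1, TopHat2 2.1.1, Bowtie2 2.2.8, SAMtools 0.1.18 and build hg19. The annotation, strand setting and library scaling were not given in the sources used, so genes that share reads with copies or overlapping genes are uncertain. As FPKM is no count, tests for counts were not used.

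The set held symbols whose mean reached 1 FPKM, without small RNA genes (prefixes such as SNOR, RNU and MIR, host genes kept, set once the symbols were seen) and genes listed at 0. Values were taken as log2(FPKM + 1), which understates differences of low genes. limma (version 3.58.1, R 4.3.3) was fitted with trend to additive culture and oxygen terms and the contrast of their sum, with 1 residual and 7.03 prior degrees of freedom. Its p-values were adjusted by Benjamini-Hochberg at 0.05, its estimate equals 3D hypoxia minus 2D normoxia, and the fit was tested on simulated data. Single changes were counted from 1.5-fold and combined changes from 2-fold. Depth was estimated in 2134 single-transcript genes by taking the most frequent low product of FPKM and length as 1 fragment. The lengths were those of GENCODE 29, whose build differs, and gave only depth and counting error (11894 genes). Promoter sequences came from RefSeq (GRCh38.p14). Python 3.11.15, pandas 2.3.3, numpy 2.4.6 and matplotlib 3.10.9 served for the rest.

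The classes, the 23 gene lists and the rule for named genes were chosen with earlier results of these data known. The rule took symbols reaching 5 FPKM in some library, other than LOC, LINC and hyphenated ones. It named the 12 highest and 12 lowest combined changes; 8 per direction that added up or needed both; 7 of each kind that cancelled out; 5 per direction of hypoxia alone and of 3D alone; up to 4 per list; the genes at class limits; and HIF1A, EPAS1 and ARNT. Some genes that met it are not reported here. Of the list symbols, 1 HIF target symbol was not found. The alternatives were other pseudocounts, filters, scalings and class limits, and limma without trend.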

Additional observations from a re-analysis of the deposited data

Results flagged for a closer look

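TFF1, the trefoil peptide secreted with mucus, responded to hypoxia in opposite directions in the 2 cultures. Its log2(FPKM + 1) was lower with hypoxia in 2D, by -0.79, and higher with hypoxia in 3D, by 1.68, so the responses differed by 2.46. This difference was not tested, since each group had 1 library, and TFF1 was under 1 FPKM in 2D hypoxia.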

How the results depend on the processing

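Directions of called named genes were stable and class sizes were not. Of 1482 pairs of a named gene and an alternative, over 188 genes, 1352 kept the side of the threshold, 114 lost the call and 16 gained it. A called direction was reversed in 0 pairs. For genes without a call the direction was not compared. With a pseudocount of 0.1, 664 genes were at least 2-fold lower, 224 added up and 130 were opposed. With a pseudocount of 5, 283 were higher and 135 lower, 39 added up, 24 were opposed, 86 followed hypoxia alone, 191 followed 3D alone, 75 needed both and 95 cancelled out. With a mean of at least 5 FPKM, 95 needed both and 133 cancelled out. With no filter limma called 665 up and 678 down, and with small RNA genes and zeros kept 777 and 796. With libraries rescaled to the same sum, 317 were higher and 1276 lower, limma called 620 up and 3575 down, 250 added up and 810 followed 3D alone; the NRF2 median was then -0.052. The complement and plasma protein median was 0.088 with no filter. With single changes counted from 0.32 on the log2 scale, 368 added up, 122 were opposed, 20 needed both and 429 cancelled out; from 2-fold, 10 added up, 28 were opposed, 107 followed hypoxia alone, 222 followed 3D alone, 587 needed both and 63 cancelled out. With combined changes counted from 4-fold, 27 added up, 9 were opposed, 24 followed hypoxia alone, 17 followed 3D alone and 5 needed both. These last shifts follow from the limits themselves, and the cause of the others was not tested. Of the 150 genes that needed both, 43 stayed in the class after rescaling and 39 with a pseudocount of 5. CA9, EGLN3, ALDOC, WISP2, C3 and CFB kept their class under every alternative run. Without replicates no library could be left out of a group. No paired analysis was possible because each group had 1 library and the labels give no replicate numbers. Depth was lowest in both 3D libraries, where a low gene rested on the fewest fragments.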

Other observations

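Some genes outside the lists and the rule for named genes are given here after their values were seen. NFKB2 and RELB, subunits of the transcription factor NF-kappaB, were both highest in 3D hypoxia. NFKB2 was at 60.7 FPKM in 3D hypoxia and 25.9 in 2D normoxia, with 31.4 in 2D hypoxia and 37.2 in 3D normoxia, and rose by 1.20 (SE 0.20, limma adjusted p = 0.00804), and RELB was at 38.6, 8.25, 14.4 and 16.1 FPKM in the same order and rose by 2.1 (SE 0.21, limma adjusted p = 0.00225). CXCR4, the receptor for the chemokine CXCL12, was at 10.3, 1.87, 15 and 0.366 FPKM, with opposed changes of 2.48 for hypoxia in 2D and -1.07 for 3D in normoxia and a combined change of 1.97 (SE 0.24, limma adjusted p = 0.00338). LCN2, an iron-scavenging secreted protein, was at 39.2, 16.8, 4.64 and 54.2 FPKM and rose by 1.18 (SE 0.34, limma adjusted p = 0.0466), a call lost under 7 of 8 alternatives. SOX2, a transcription factor of airway progenitors, was at 1.32 FPKM in 3D hypoxia and 5.15 in 2D normoxia, with 3.03 in 2D hypoxia and 1.36 in 3D normoxia, with a combined change of -1.41 (SE 0.26, limma adjusted p = 0.0111) and single changes of -0.61 and -1.38.

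FLNA, VCL and ZYX, which act in the cytoskeleton and focal adhesions, cancelled out and were likewise picked after their values were seen. FLNA, an actin crosslinker, was at 499.6 FPKM in 3D hypoxia and 603 in 2D normoxia, with 1029 in 2D hypoxia and 181 in 3D normoxia, VCL, the adhesion protein vinculin, at 69.9, 104, 181 and 33.0 FPKM and ZYX at 67.4, 58.5, 96.8 and 34.9 FPKM in the same order. The single changes were 0.77, 0.79 and 0.72 with hypoxia in 2D and -1.73, -1.63 and -0.73 with 3D in normoxia, and the combined changes were -0.27, -0.57 and 0.20. After rescaling, FLNA and VCL left the class and limma called VCL as a fall. FOXA1 and FOXA3, transcription factors of epithelial differentiation, had the mirror pattern on the deposited scale and left the class after rescaling, at 10.2, 9.82, 5.53 and 15.3 FPKM for FOXA1 and 1.98, 3.23, 0.472 and 5.60 FPKM for FOXA3. FOXA1 kept the class under 6 of 9 alternatives and FOXA3 under only 3 of 8. FOXA3 also left it with pseudocounts of 0.1 and 5 and with other limits for single changes. HIST1H4H, a histone gene with near-identical copies, was at 55.4, 6.09, 14.1 and 7.65 FPKM and H3F3A at 0.00613, 4.05, 2.41 and 7.93 FPKM; both levels are uncertain because reads can be shared between copies.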
